A study of Mus musculus with 6 samples.

Results

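Cells made by direct reprogramming (2 libraries, called reprogrammed cells here) were compared with mouse embryonic fibroblasts (MEF, 2 libraries), the starting cell type, across all genes. These are 4 of the 6 RNA-seq libraries of a mouse study on trans-differentiation and developmental DNA methylation, in which a muscle group (2 libraries) gives a reference level. The 4 libraries were chosen by their labels, and 17400 of 55286 gene symbols held enough counts to be tested. The labels leave unstated the reprogramming factor, its delivery, the time after induction, the strain, age and sex of the embryos, the source of the muscle and whether replicates were separate cultures, so p-values measure the spread between these libraries, which may be technical. Levels are CPM, counts scaled to a common library total with edgeR's TMM factors, given as replicate 1 and replicate 2. A gene is called higher or lower where edgeR's quasi-likelihood test gave a Benjamini-Hochberg adjusted p under 0.05 over all tested genes. Errors of log2 fold changes are approximate standard errors (SE). Each is the size of the log2 fold change divided by the square root of the test's F statistic.

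As background, skeletal muscle forms when myogenic bHLH factors (MYOD1, MYF5, myogenin, MRF4) pair with E proteins and bind E-boxes, short DNA motifs in muscle promoters and enhancers. ID proteins take the E proteins away and hold cells undifferentiated. Myoblasts leave the cell cycle, fuse through myomaker and myomerger, and replace the cytoskeletal genes that most cells use with sarcomeric, calcium-handling and metabolic genes of muscle. Fibroblasts, which hold a contractile and matrix-secreting programme of their own, can be driven along this path by a single myogenic factor.

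Of the tested genes, 2769 were higher in reprogrammed cells (15.9%) and 1973 were lower (11.3%), 27.3% in either direction. Counts of called members in the gene lists below are to be read beside these shares. A gene near 0 in MEF passed the filter on low counts only through the other groups. Such a gene could be called higher but not lower, and members silent in all groups were not tested. In lists of genes nearly silent in MEF, a high share of rises is thus partly set by the filter. The median log2 fold change over all tested genes was 0.07. In 10547 tested genes (60.6%) the 2 reprogrammed libraries did not overlap the 2 MEF libraries, in either direction, so a lack of overlap was common. The rise was the steeper side: 730 genes rose and 32 fell by a log2 of 5 or more. Genes called higher took 6.08% and 6.57% of the reads in MEF and 33.2% and 34.4% in reprogrammed cells. Genes called lower went from 36.8% and 34.0% of the reads to 10.9% and 11.9%. These genes were called from the same libraries, so the direction of both shifts was set by the calls and only their size is descriptive. The count of lower genes was 1280 without reprogrammed replicate 1, and no other library left out moved either count by over 1.5 times. RNA came from bulk cultures, so fewer cells of a type and less RNA per cell cannot be told apart.

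**Figure D1:**
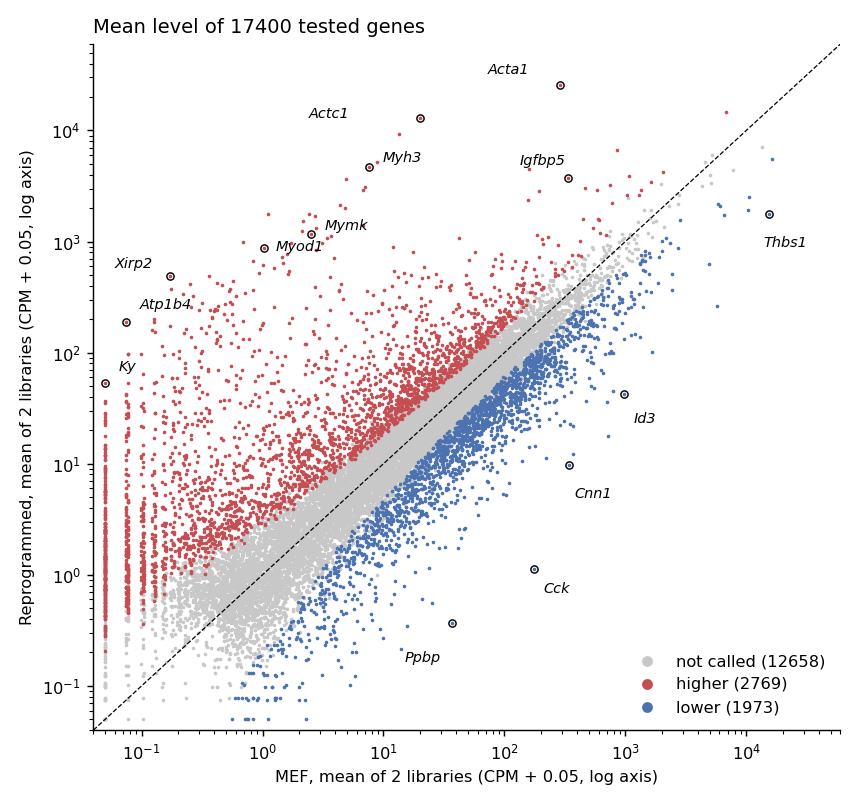
Mean CPM of each tested gene in MEF (x axis) and in reprogrammed cells (y axis), both on log axes with 0.05 CPM added; red points were called higher, blue points lower and grey points neither, and open circles mark named genes. The red points spread far above the diagonal, up to Acta1 and Actc1, and hold 2769 genes against 1973 blue ones.

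The libraries held 16817033 to 24584951 counts, and a count of 0 allows at most 3 counts (0.156 CPM on average in MEF, 0.157 in reprogrammed cells). Replicates differed with the GC content of transcripts: across 17042 genes, the Spearman correlation of replicate 1 minus replicate 2 with transcript GC was 0.65 in MEF and -0.63 in reprogrammed cells, against -0.08 for the difference between the groups. A per-library correction for GC, added after the data were seen, gave 4042 higher and 2993 lower genes. Sex-linked RNA differed too. Xist, transcribed from the inactive X, stood at 117 and 157 CPM in MEF and 22.4 and 16.8 in reprogrammed cells (log2 fold change -2.81 ± 0.32, adjusted p = 0.00034) with no overlap. Y-linked Eif2s3y stood at 8.26 and 19 CPM in MEF and at 45.4 and 26.6 in reprogrammed cells (log2 1.4 ± 0.45, adjusted p = 0.0493, a call lost without MEF replicate 1, reprogrammed replicate 1 or either muscle library). Both groups held RNA of both genes in every library, while muscle held Xist at 399 and 616 CPM and Eif2s3y at 0.0426 and 0. The part of the sex makeup in any difference below was not tested.

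RNA of macrophages was higher in both reprogrammed libraries. Of 23 tested macrophage and myeloid genes, 21 rose and 0 fell (median 3.38), also 0 at an unadjusted p under 0.05 in edgeR and 0 by DESeq2. Their summed level was 120 and 115 CPM in MEF, 1231 and 1037 in reprogrammed cells, and 22.9 and 16 in muscle. C1qa, a complement gene of tissue macrophages, went from 1.27 and 1.46 CPM to 43.7 and 48.8 (log2 5.08 ± 0.34, adjusted p = 1.12e-05), against 0.0426 and 0.0609 in muscle, and lysozyme (Lyz2) from 28.9 and 41.8 to 440.2 and 295. Itgam was at 0 in both MEF libraries, and Adgre1, Ptprc, Tyrobp and Trem2 were at 0 in both muscle libraries. The part of such cells in the other genes that rose or fell was not tested. Lyz2, Itgam, Adgre1, Ptprc, Tyrobp and Trem2 were chosen after their values were seen.

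Myod1, which encodes a master regulator of myogenesis, stood at 1.43 and 0.534 CPM in MEF and at 559 and 1189 in reprogrammed cells, a log2 fold change of 9.81 ± 0.62 (adjusted p = 1.02e-05). The lowest reprogrammed library was far above both MEF libraries, and muscle held 724 and 622 CPM. If a mouse Myod1 copy was introduced, its reads and those of the cell's own gene cannot be told apart in this level. Mymk, which encodes the fusion protein myomaker, rose from 3.36 and 1.55 CPM to 858 and 1461 (log2 8.89 ± 0.52, adjusted p = 7.27e-06), also without overlap. Cnn1, which encodes smooth muscle calponin, fell from 386 and 301 CPM to 9.78 and 9.78 (log2 -5.13 ± 0.55, adjusted p = 0.000227), and muscle held 20.5 and 6.03 CPM. On mm10 the GENCODE M21 genes lie at chr7:46376474-46379099 (Myod1), chr2:27061636-27072179 (Mymk) and chr9:22099216-22109630 (Cnn1).

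Among the 24 genes of the myogenic bHLH family and its partners, 8 rose, 9 fell and 7 were not called, beside 15.9% and 11.3% of all tested genes (median -0.43). Myog, which encodes the differentiation factor myogenin, went from 1.6 and 1.21 CPM to 601 and 865 (log2 9.02 ± 0.38, adjusted p = 1.57e-06). Myf6, which encodes MRF4, had 0 counts in both MEF libraries and 22.7 and 23.8 CPM in reprogrammed cells, at least 149.7-fold higher (adjusted p = 9.35e-06). Myf5, the earliest of the family in embryonic muscle, did not follow: it stood at 0.0551 and 0.0486 CPM in MEF and 0.281 and 0.145 in reprogrammed cells (adjusted p = 0.126), near the level of 3 counts. In muscle Myf5 reached 31 and 38.6 CPM, and the difference between reprogrammed cells and muscle was a log2 of -7.33 ± 0.46 (adjusted p = 0.000101). The E proteins that partner these factors were not called: Tcf3 stood at 160.3 and 69.5 against 45.5 and 96.3 CPM and Tcf12 at 105 and 131 against 117 and 93.9.

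Antagonists of the bHLH factors moved in both directions. All 4 Id genes, Snai1, Snai2, Twist1, Twist2 and the Notch effector Hes1 made up the 9 genes of the list that fell, while the repressors Msc, Hey1, Heyl, Bhlhe40 and Bhlhe41 rose beside Myod1, Myog and Myf6. The Hes1 call was lost without MEF replicate 1, reprogrammed replicate 1 or either muscle library. Id3 dropped from 1228 and 723 CPM to 31.3 and 54 (log2 -4.51 ± 0.41, adjusted p = 8.81e-05) and Id1 from 332 and 204 to 21.3 and 36.2 (log2 -3.22 ± 0.41, adjusted p = 0.000576). Id2 kept more of its level, at 133 and 117 CPM in MEF and 46 and 52.9 in reprogrammed cells (log2 -1.34 ± 0.25, adjusted p = 0.00418). Snai2, a repressor that binds the same E-boxes, went from 101 and 102 to 21.3 and 10.7 CPM (adjusted p = 0.0008), and Twist2, a mesenchymal bHLH repressor, from 86.6 and 49.6 to 9.5 and 11.6 (adjusted p = 0.00178). In each of these genes both reprogrammed libraries lay below both MEF libraries, while 60.6% of all tested genes showed no overlap in either direction. Msc, which encodes the MYOD1 repressor musculin, went from 0 counts in both MEF libraries to 1.01 and 1.31 CPM, at least 7.46-fold higher (adjusted p = 0.00357). Heyl, a Notch-induced repressor, rose from 1.87 and 1.51 to 23.9 and 34 CPM (log2 4.1 ± 0.35, adjusted p = 5.71e-05). Id1, Id2, Id4, Snai1, Msc, Hes1, Hey1, Bhlhe40, Bhlhe41 and the E proteins were chosen for mention after their values were seen.

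**Figure D2:**
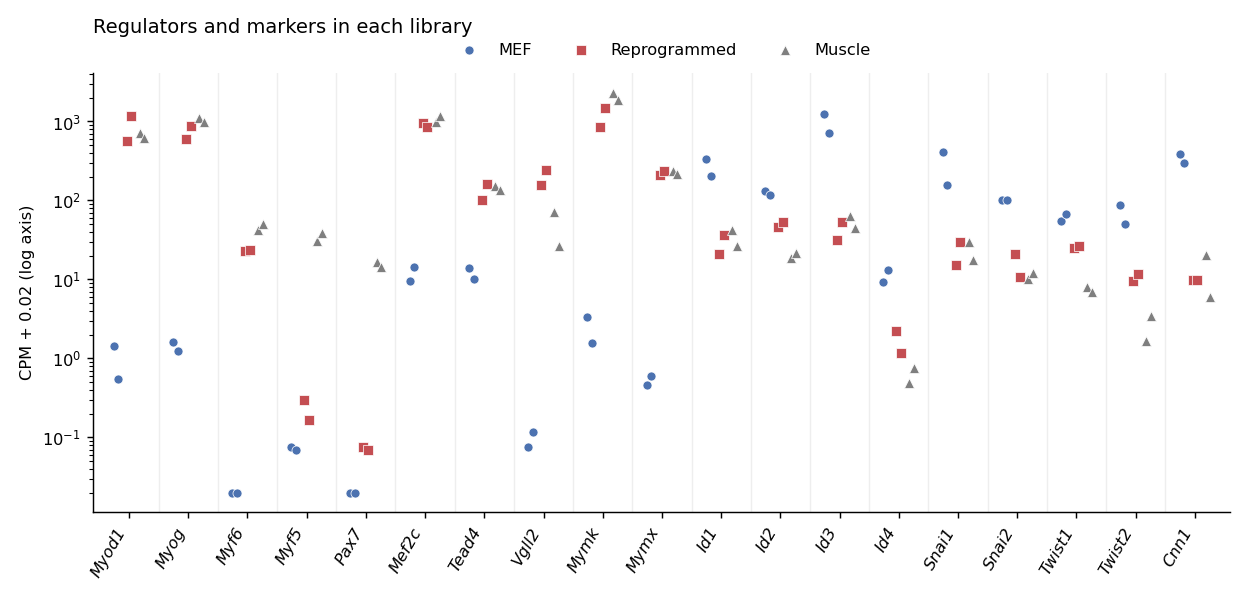
CPM (log axis, 0.02 added) of 19 regulators and markers in each of the 6 libraries; blue circles are MEF, red squares reprogrammed cells and grey triangles muscle, 2 libraries each. Red squares lie with the grey triangles for Myod1, Myog, Mef2c and Mymk, but for Myf5 and Pax7 they lie near the blue circles at under 0.3 CPM.

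Of 35 tested MEF2, sine oculis homeobox and other myogenic transcription factors, 18 rose and 6 fell (median 1.13). Without reprogrammed replicate 1, 3 fell. Mef2c, whose product acts with the bHLH factors on muscle genes, rose from 9.58 and 14.3 CPM to 958 and 845 (log2 6.24 ± 0.33, adjusted p = 4.57e-06), close to the 974 and 1181 CPM of muscle. Smyd1, a muscle methyltransferase, rose from 0.496 and 0.486 to 382 and 372 CPM (log2 9.57, adjusted p = 1.41e-06). Csrp3, a sarcomere-associated cofactor, went from 0.11 and 0.291 CPM to 456 and 371. Ankrd2, a stretch-responsive one, went from 0.386 and 0.243 CPM to 168 and 181. Sine oculis homeobox factors and their EYA cofactors moved unevenly: Six4 (40.1 and 46.2 against 31.5 and 30.2 CPM) was not called, Eya4 rose (log2 2.66, adjusted p = 0.000151) and Eya2 fell (log2 -2.28, adjusted p = 0.00377). The TEAD cofactors split in the same way. Vgll2 stood at 0.0551 and 0.0971 CPM in MEF and 157 and 244 in reprogrammed cells, above the 70.6 and 26.5 CPM of muscle (log2 2.04 ± 0.45 against muscle, adjusted p = 0.0212). Vgll3 fell from 283 and 237 to 72.6 and 104 CPM (adjusted p = 0.00299). Six4, Eya4 and Vgll2 were chosen after their values were seen.

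The promoters of 6 muscle genes are shown because they hold the most copies of CAGCTG, the E-box core that MYOD1 is known to prefer, among 105 named genes that rose and had a promoter in the RefSeq table (GRCm38.p6, the assembly of mm10; the first listed start of each gene). Each holds 2 copies, in capitals, in the 250 bases before the start, written 5′ to 3′ on the gene's strand.
Chrng, chr1:87205561-87205810, plus strand: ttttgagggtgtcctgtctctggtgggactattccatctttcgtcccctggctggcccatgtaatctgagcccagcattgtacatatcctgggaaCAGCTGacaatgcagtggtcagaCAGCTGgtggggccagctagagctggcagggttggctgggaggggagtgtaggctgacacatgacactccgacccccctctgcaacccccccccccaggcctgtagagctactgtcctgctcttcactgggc
Pygm, chr19:6384158-6384407, plus strand: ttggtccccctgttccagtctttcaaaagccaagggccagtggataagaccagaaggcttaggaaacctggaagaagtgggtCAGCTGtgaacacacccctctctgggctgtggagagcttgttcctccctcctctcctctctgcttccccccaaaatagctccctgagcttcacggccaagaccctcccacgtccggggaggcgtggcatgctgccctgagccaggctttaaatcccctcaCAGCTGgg
Tnnt2, chr1:135836084-135836333, plus strand: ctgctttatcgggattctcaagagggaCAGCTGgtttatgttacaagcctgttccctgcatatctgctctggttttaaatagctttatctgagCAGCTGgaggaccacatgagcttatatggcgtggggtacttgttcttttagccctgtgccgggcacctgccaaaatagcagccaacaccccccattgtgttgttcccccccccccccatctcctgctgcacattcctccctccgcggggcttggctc
Chrna1, chr2:73580339-73580588, minus strand: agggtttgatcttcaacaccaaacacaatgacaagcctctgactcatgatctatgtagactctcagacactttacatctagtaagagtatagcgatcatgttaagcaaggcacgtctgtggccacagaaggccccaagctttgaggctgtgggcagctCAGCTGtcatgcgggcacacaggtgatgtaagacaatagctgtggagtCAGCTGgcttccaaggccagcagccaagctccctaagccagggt
Srpk3, chrX:73774155-73774404, plus strand: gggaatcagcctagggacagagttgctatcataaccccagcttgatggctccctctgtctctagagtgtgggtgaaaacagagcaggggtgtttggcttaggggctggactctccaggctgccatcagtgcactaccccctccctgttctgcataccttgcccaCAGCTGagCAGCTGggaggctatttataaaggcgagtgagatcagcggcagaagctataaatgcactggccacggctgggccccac
Obsl1, chr1:75506453-75506702, minus strand: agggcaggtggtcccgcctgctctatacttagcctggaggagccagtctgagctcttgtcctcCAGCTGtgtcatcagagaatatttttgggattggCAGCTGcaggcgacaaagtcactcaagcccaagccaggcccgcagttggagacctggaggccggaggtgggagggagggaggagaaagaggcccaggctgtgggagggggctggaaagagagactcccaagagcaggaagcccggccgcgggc
Chrng and Chrna1 encode subunits of the muscle acetylcholine receptor, Pygm muscle glycogen phosphorylase, Tnnt2 a troponin T, Srpk3 a muscle splicing kinase and Obsl1 an obscurin-like sarcomere protein. The copies nearest the start sites began 8 bases before it in Pygm and 44 bases before it in Chrna1. A match is a description of letters and not a bound site.

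The description covers protein-coding genes on the chromosomes for which the RefSeq table held at least 80% of the tested ones, which gave promoters for 1459 of 1806 genes that rose (80.8%), 1157 of 1394 that fell (83.0%) and 6158 of 7232 that were not called (85.1%). In the 250 bases before the start, the median number of CpG dinucleotides was 11 for genes that rose, 15 for genes that fell and 16 for genes that were not called. A ratio of observed to expected CpG under 0.4 was found in 35.8% of the promoters of genes that rose, 20.2% of those that fell and 14.7% of the others. Over all 27025 promoters in the table, the median was 6 CpG and 51.8% had a ratio under 0.4, so promoters of genes that rose held fewer CpG than those of the other tested genes and more than the table as a whole. Searched on both strands, CAGCTG was present in 17.5% of the promoters of genes that rose, 13.1% of genes that fell, 11.0% of the others and 12.8% of the whole table. The related E-box CAGGTG was present in 19.2%, 14.5%, 13.6% and 17.1%, in the same order. A MEF2 motif was found in 1.3%, 0.346%, 0.260% and 0.518%, and the AP-1 motif TGANTCA in 5.41%, 5.96%, 3.93% and 6.87%. TEAD's GGAATG was in 12.3%, 12.5%, 9.94% and 12.6%, and the SRF CArG box in 1.51%, 1.56%, 1.02% and 1.40%. Genes are not independent replicates and no test was made of these shares.

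**Figure D3:**
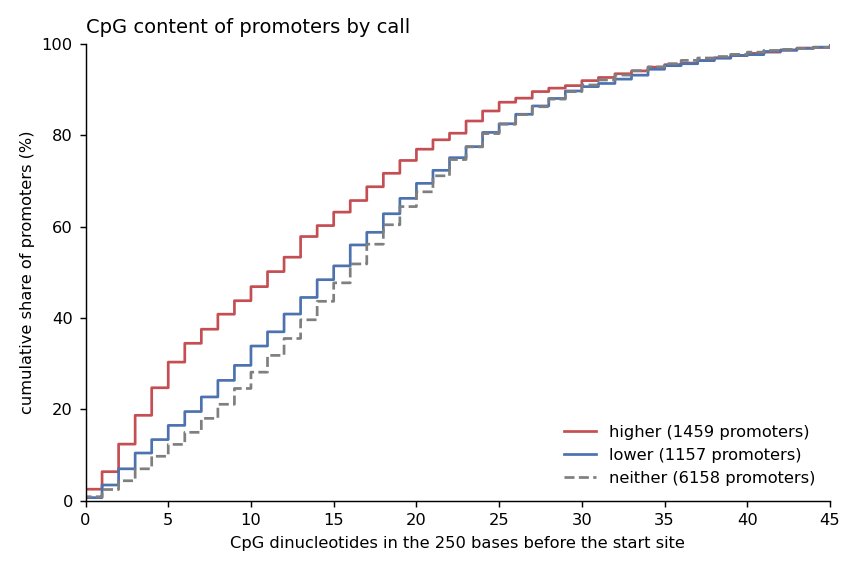
Cumulative share of promoters (y axis, %) by the number of CpG dinucleotides in the 250 bases before the start site (x axis), for genes called higher (red, 1459), lower (blue, 1157) or neither (dashed grey, 6158). The red line lies above the other lines up to about 30 CpG, with medians of 11, 15 and 16.

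Of 18 tested markers of satellite and progenitor cells, 9 rose and 2 fell (median 1.73). Itga7, the laminin-binding integrin of muscle, rose from 21 and 12.4 CPM to 352 and 638, and Cdh15, which encodes M-cadherin, from 0.496 and 0.486 to 187 and 387 (log2 9.17 ± 0.5, adjusted p = 5.26e-06). Pax7, the transcription factor that defines satellite cells, had 0 counts in both MEF libraries and 1 count in each reprogrammed library, against 16.6 and 14.5 CPM in muscle (log2 -8.06 ± 0.59 between reprogrammed cells and muscle, adjusted p = 0.000251). Pax3 was also low, at 0.386 and 0.437 CPM in MEF and 0.225 and 1.02 in reprogrammed cells. Met, the receptor for hepatocyte growth factor, fell from 13.5 and 21.1 CPM to 2.75 and 1.84 (adjusted p = 0.00165), and Vcam1 from 130.1 and 188 to 42.2 and 34.8 (adjusted p = 0.00107).

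In the list of fusion and adhesion genes, 10 of 23 tested rose and 5 fell (median 0.37), 3 of them without MEF replicate 1 and 1 without reprogrammed replicate 1. The members specific to muscle rose by the largest amounts. Mymx, which encodes myomerger, went from 0.441 and 0.583 CPM to 213 and 236 (log2 8.75 ± 0.35, adjusted p = 1.41e-06), level with the 239 and 217 CPM of muscle. Tmem182, a membrane protein of muscle, went from 0.386 and 0.437 CPM to 448 and 371. Caveolin-3 (Cav3) went from 1.87 and 1.31 CPM to 457 and 632. Members that fell are expressed in most cells: Dock1, a Rac activator, went from 112 and 108 to 39 and 49.8 CPM (adjusted p = 0.0051), and Myof, which encodes myoferlin, from 374 and 379 to 149.5 and 194 (adjusted p = 0.0085), a call lost without reprogrammed replicate 1.

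All 25 tested thick filament genes rose, with a median log2 fold change of 9.2, and 3 of the 28 listed were not tested. The whole list summed to only 103 and 93.4 CPM in MEF, against 34743 and 32338 in reprogrammed cells. Most members therefore had little room to fall, and the share that rose is partly set by the filter. They span the myosins of different stages and fibre types. Embryonic Myh3 went from 4.74 and 10.4 CPM to 4530.3 and 4912 (log2 9.28 ± 0.48, adjusted p = 4.03e-06) and perinatal Myh8 from 0.551 and 0.729 to 974 and 987 (log2 10.56 ± 0.37, adjusted p = 1.41e-06). Slow Myh7 went from 0.33 and 0.34 to 191 and 225 CPM and fast Myh1 from 0.606 and 1.17 to 489.9 and 547. Fast Myh4 rose from 3 counts in MEF to 152 and 153 CPM, a ratio of 1970.0 (Poisson interval 674 to 9555). For each of these heavy chains the 2 reprogrammed libraries lay close together and far above both MEF libraries. The heavy chains of this cluster are similar in sequence, so reads could be shared between them. Titin (Ttn), the spring of the sarcomere, rose from 3.69 and 5.97 to 3577 and 3726 CPM, against 5947 and 7301 in muscle. Myl2, the slow regulatory light chain, rose only to 2.64 and 1.94 CPM against 125 and 128 in muscle (log2 -5.79 ± 0.42, adjusted p = 0.000177). Myh1, Myl2 and the muscle comparison were chosen after the values were seen.

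Of 25 thin filament genes, 20 rose and 2 fell (median 8.33). Sarcomeric actins led in amount: Acta1 rose from 364 and 217 CPM to 18875 and 32273 (log2 6.46 ± 0.44, adjusted p = 1.43e-05) and Actc1 from 19.6 and 20.4 to 11303 and 14339 (log2 9.33 ± 0.35, adjusted p = 1.41e-06). Fast troponin I (Tnni2) went from 2.2 and 2.57 to 1960.0 and 1571 CPM, and Klhl41, which stabilises nebulin, from 0.936 and 0.971 to 680.3 and 537. The 2 that fell are Lmod1, the smooth muscle leiomodin (109 and 94.7 to 6.8 and 13.5 CPM, adjusted p = 0.000362), and Tpm3 (289 and 279 to 146 and 141, adjusted p = 0.0167), whose call was lost without either reprogrammed library. Cardiac troponin I (Tnni3) stayed under 1 CPM in all 4 libraries.

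At the Z-disc and costamere, where filaments are anchored to the membrane, 34 of 36 tested genes rose and 1 fell (median 6.45). Alpha-actinin-2 (Actn2) went from 1.76 and 2.48 CPM to 1394 and 1669 (log2 9.49 ± 0.37, adjusted p = 1.41e-06). Myotilin (Myot), a Z-disc protein, rose from 3 counts in MEF to 206 and 175 CPM, and Myoz1, which encodes a calcineurin-binding Z-disc protein, from 0 counts to 23.3 and 25.7 CPM, at least 157-fold higher. Xirp2, an actin-binding repeat protein, went from 0 and 0.243 to 546 and 426 CPM and lay above muscle, at 123 and 164 (log2 1.76 ± 0.38 against muscle, adjusted p = 0.0207). Sgce, the sarcoglycan expressed outside muscle, was the member that fell (118 and 118 to 72.4 and 53.1 CPM, adjusted p = 0.0285), a call that held only without reprogrammed replicate 1 among the libraries left out in turn.

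In the sarcoplasmic reticulum and triad, which turn the membrane signal into calcium release, 30 of 33 tested genes rose and 0 fell (median 7.55). At an unadjusted p under 0.05 in edgeR 0 fell too, and DESeq2 called 0 lower. The calcium release channel Ryr1 went from 0.661 and 0.389 CPM to 341 and 546 (log2 9.72 ± 0.46, adjusted p = 2.85e-06), and its voltage sensor Cacna1s from 0.386 and 0.729 to 208 and 437. Hrc, which binds calcium in the lumen, rose from 0.606 and 0.68 CPM to 196 and 188. Sarcalumenin (Srl), also a luminal calcium-binding protein, rose from 2.59 and 3.55 CPM to 944 and 982. Casq1, the fast-fibre calcium store, rose from 0.551 and 0.729 to 136 and 127 CPM but stayed below the 721 and 839.8 CPM of muscle (log2 -2.57 ± 0.25, adjusted p = 0.000404). Ryr1 and Cacna1s were chosen after their values were seen.

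Of 21 genes of the neuromuscular junction, 15 rose and 2 fell (median 4.86). The receptor subunit Chrna1, whose promoter is printed above, rose from 4.13 and 3.16 CPM to 1027 and 1237 (log2 8.28 ± 0.34, adjusted p = 1.41e-06). Chrng, the embryonic subunit with 2 E-boxes in the printed promoter, rose from 0.275 and 0.68 CPM to 252 and 466 (log2 9.51 ± 0.53, adjusted p = 5.75e-06). The muscle libraries held still more of both, with Chrna1 at 2730 and 2576 CPM and the embryonic Chrng at 651 and 629. Chrne, the subunit that replaces Chrng in adult muscle, reached only 2.87 and 3.2 CPM. Musk, the kinase that organises the synapse, rose from 0.275 and 0.583 to 23.9 and 39.7 CPM, below the 180.4 and 258 of muscle (log2 -2.79 ± 0.36, adjusted p = 0.00189). Dok1, an adaptor protein, fell from 68.2 and 58.9 to 10.6 and 12.2 CPM (adjusted p = 0.000527), and muscle held 25.3 and 16.4. Chrne and Musk were chosen after their values were seen.

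In 38 pairs of related genes, 1 was labelled broad and the other muscle. The labels do not hold equally well in every pair. Aldoa, labelled muscle, already held 99.5% of its pair with Aldoc in MEF. Nebl, labelled broad, stood at only 0.0143 CPM per kilobase of exon in MEF. The counts below include such pairs. The muscle gene rose in 34 pairs and was not called in 4 (Cpt1b, Ak1, Ezh1 and Fabp3). The gene labelled broad fell in 21, rose in 6 and was not called in 11. In 20 pairs the muscle gene rose and the broad gene fell, and the medians were 6.0 and -1.08, beside 0.07 for all tested genes. Set per kilobase of exon, so that the 2 genes of a pair can be compared, the muscle gene held most of the pair in both MEF libraries in 4 pairs and in both reprogrammed libraries in 29. A change of majority was seen in 23 pairs.

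The filament pairs changed hands almost wholly. Mylpf, the fast regulatory light chain, made up 0.93 and 2.07% of its pair with Myl9 in MEF and 98.3 and 96.7% in reprogrammed cells. The share of Actc1 in its pair with Actb went from 0.252 and 0.433% to 91.8 and 91.6%, as Actb itself fell from 12803 and 7759 CPM to 1682 and 2179.9 (log2 -2.41 ± 0.32, adjusted p = 0.000721). Filamin changed from Flna (2787 and 2057 to 287 and 440.1 CPM, log2 -2.74, adjusted p = 0.000485) to Flnc (568 and 332 to 1057 and 2149.7 CPM, log2 1.83, adjusted p = 0.00946). Desmin (Des) rose against vimentin (Vim) from 3.4 and 3.18% to 69.4 and 74.1% of the pair. Both reprogrammed libraries lay above both MEF libraries in each of these pairs.

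In some mitochondrial and membrane pairs the muscle gene stayed the minority, in some of them also in muscle itself. The heart and muscle form of cytochrome oxidase subunit 6a (Cox6a2) rose from 1.1 and 0.631 CPM to 24.3 and 41.3 (log2 5.25 ± 0.43, adjusted p = 4.19e-05) but reached only 16.5 and 16.8% of its pair, against 39.6 and 35.7% in muscle. Cox6a1 was called lower (log2 -1.39, adjusted p = 0.0196), a call lost without MEF replicate 1 or reprogrammed replicate 1. Cox8b held 29.9 and 27.5%, against 38.5 and 56.3% in muscle. The insulin-sensitive glucose transporter Slc2a4 held 18.7 and 25%, against 41.1 and 54.3% in muscle. Cox7a1 held 10.2 and 16.2%, level with the 13.5 and 12.8% of muscle. Cpt1b, which admits long-chain fatty acids to muscle mitochondria, was not called (0.716 and 0.0971 against 0.394 and 1.11 CPM, adjusted p = 0.495). Muscle held Cpt1b at only 1.45 and 1.34 CPM, so this gene was low in every library. Its share of the pair was 2.74 and 5.66%, against 15.5 and 19.9% in muscle.

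**Figure D4:**
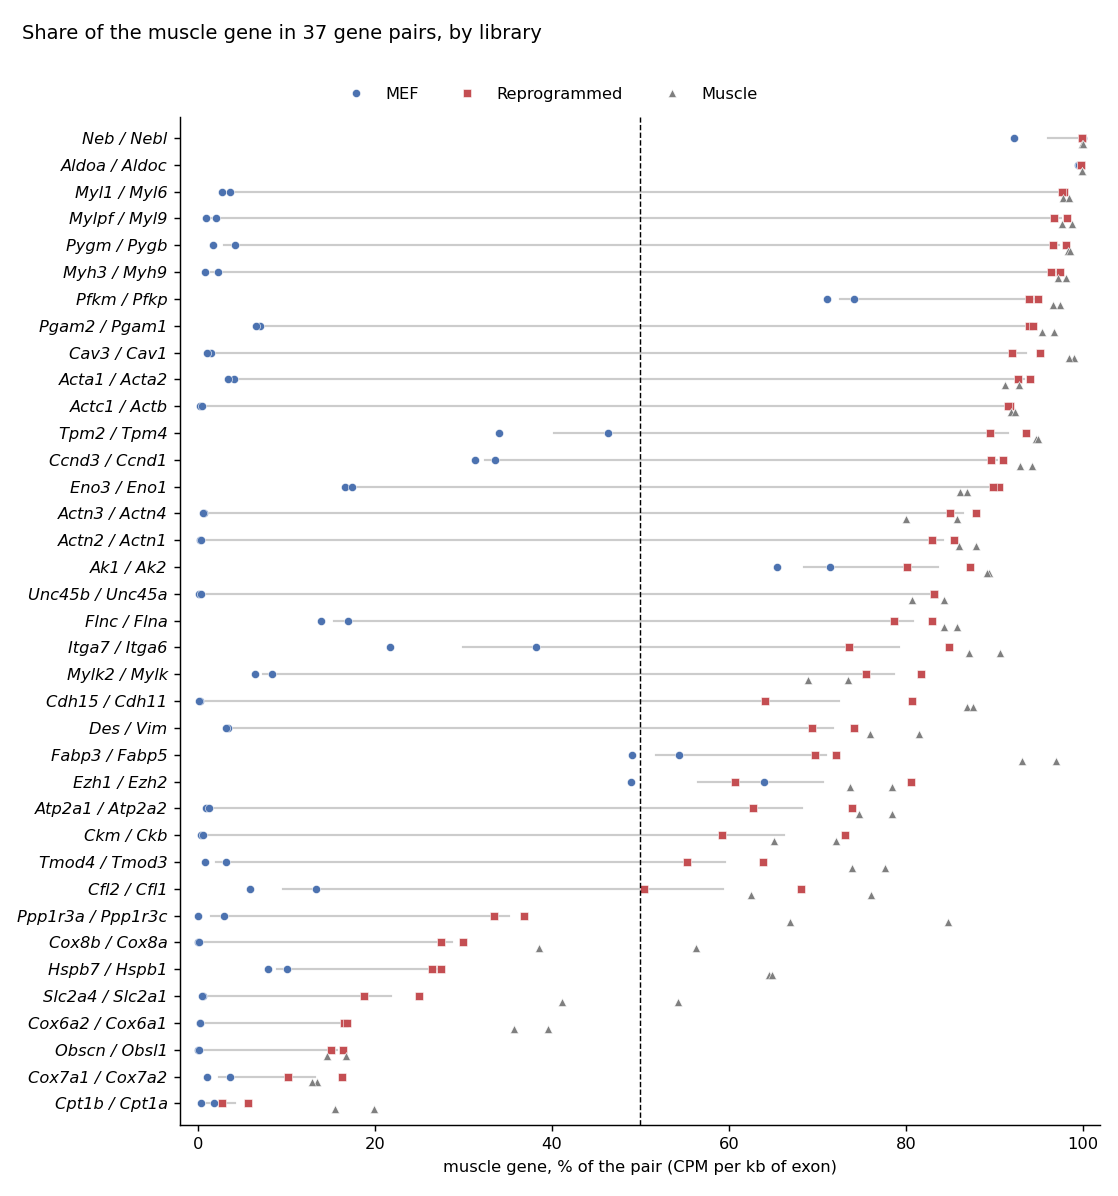
Share of the muscle gene in each of 37 of the pairs (x axis, % of the summed CPM per kilobase of exon), by library: blue circles MEF, red squares reprogrammed cells, grey triangles muscle (drawn slightly lower); grey lines join the MEF and reprogrammed means and the dashed line marks 50%. In 29 pairs both red squares lie right of the dashed line, and the pairs at the bottom, among them Cpt1b, Cox7a1, Cox6a2 and Slc2a4, lie left of it.

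Among 40 genes of glycolysis and glycogen metabolism, 21 rose and 3 fell (median 1.08). Without MEF replicate 1, or without either reprogrammed library, 1 fell. Pygm, which releases glucose from glycogen, went from 0.936 and 1.94 CPM to 462 and 807 (log2 8.76 ± 0.5, adjusted p = 6.06e-06). Phosphoglycerate mutase 2 (Pgam2) rose from 3.52 and 2.38 to 301 and 342 CPM, muscle enolase (Eno3) from 42.6 and 41.8 to 1068 and 1102 and muscle phosphofructokinase (Pfkm) from 20.7 and 19.8 to 219.5 and 246. Their broadly used counterparts Pgam1, Eno1 and Pygb were the 3 that fell (log2 -1.01, -0.8 and -1.62, adjusted p = 0.0199, 0.0276 and 0.00187). The Pygb call held without each library, whereas that of Eno1 was lost without any of the 6 and that of Pgam1 without MEF replicate 1 or either reprogrammed library. Of 37 genes of fatty acid and phosphocreatine metabolism, 13 rose and 2 fell (23 and 5 with the GC correction), and 1 fell without MEF replicate 1 or reprogrammed replicate 1. Muscle creatine kinase (Ckm) went from 0.826 and 0.729 to 567 and 773 CPM and myoglobin (Mb) from 0.936 and 2.23 to 477 and 549, against 1705 and 1799 in muscle. Of 47 nuclear genes of oxidative phosphorylation, 13 rose and 1 fell (median 0.65). In this list 5 rose without MEF replicate 1 or without reprogrammed replicate 1, and 27 with the GC correction. Mitochondrially encoded RNA took 1.88% and 1.98% of the counts in MEF and 4.18% and 3.45% in reprogrammed cells.

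Of 18 tested regulators of muscle splicing, 8 rose and 4 fell (median 0.77). Rbm24, which promotes muscle exons, rose from 0.33 and 0.34 CPM to 188 and 218 (log2 9.21 ± 0.38, adjusted p = 1.52e-06). Rbfox1, a splicing factor of muscle and brain, rose from 1.05 and 0.729 to 94.7 and 118 CPM and Rbm20, which acts on titin, from 1.71 and 0.826 to 54.6 and 78. Ptbp1, a repressor of muscle and neuronal exons, fell from 802 and 519 to 128 and 216 CPM (log2 -1.94 ± 0.36, adjusted p = 0.00453), and Mbnl3 from 11.7 and 15.2 to 1.86 and 1.74 (adjusted p = 0.000595). Ptbp1 was chosen after its values were seen.

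Cell-cycle genes fell. Of 31 mitosis genes, 23 fell and 0 rose (median -1.73), and of 32 DNA replication genes, 17 fell and 0 rose (median -1.14). Leaving out single libraries gave 17 to 26 and 11 to 17 lower genes, with 11 replication genes without reprogrammed replicate 2. At an unadjusted p under 0.05 in edgeR, 0 mitosis genes and 1 replication gene rose, and DESeq2 called 0 higher in either list. With the GC correction 1 replication gene was called higher. Anln, needed for cytokinesis, went from 65.3 and 93.5 CPM to 15.8 and 9.68 (log2 -2.64 ± 0.35, adjusted p = 0.000718), and Cdc20, an activator of the anaphase complex, from 48 and 35.7 to 9.28 and 7.36 (adjusted p = 0.00162). Mki67, a marker of cycling cells, fell from 65.7 and 87.1 to 34.6 and 21.7 CPM (adjusted p = 0.0106) and stayed above muscle, which held 2.09 and 1.52 (log2 3.94 ± 0.37, adjusted p = 0.000404). Of 25 genes of the cell-cycle inhibitor and RB family list, which also holds the D cyclins, 7 rose and 5 fell (8 fell by DESeq2). Rb1, the retinoblastoma protein, rose from 19.9 and 29.8 to 208 and 147 CPM (log2 2.83 ± 0.32, adjusted p = 0.00031). Cyclin D1 (Ccnd1) fell from 166 and 117 CPM to 18.2 and 30.2 (adjusted p = 0.000699) and cyclin D2 (Ccnd2) from 796 and 774 to 227 and 279.8 (adjusted p = 0.00112). Cyclin D3 (Ccnd3) rose from 156 and 99.1 CPM to 341 and 484 (log2 1.69 ± 0.3, adjusted p = 0.00371). The p21 gene Cdkn1a rose from 635 and 437 to 1058 and 1585 CPM (adjusted p = 0.0109), a call lost without reprogrammed replicate 2.

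Of 47 tested mesenchymal and fibroblast transcription factors, 22 fell and 6 rose (median -1.03), with 15 to 23 lower as single libraries were left out. Hmga2, an architectural factor of immature cells, went from 327 and 365 CPM to 22.1 and 23.4 (log2 -3.93 ± 0.33, adjusted p = 5.03e-05). Prrx1, a limb mesenchyme factor, kept more of its level (300.2 and 361 against 156 and 129 CPM, adjusted p = 0.00864). Sox11, an SRY-box factor, rose from 9.53 and 9.52 to 129 and 175 CPM (adjusted p = 3.94e-05). Tbx15, a T-box factor, rose from 72.4 and 67.4 to 273 and 261 CPM (adjusted p = 0.000821). Of 29 fibroblast surface and secreted markers, 12 fell and 2 rose (median -0.52; 4 rose with the GC correction). Ly6a, which encodes SCA1, fell from 462 and 482 to 43.8 and 29.4 CPM and Thy1 from 935 and 574 to 79.4 and 125, both without overlap. Lum and Pi16 rose (adjusted p = 0.0148 and 0.0084), and the Lum call was lost without reprogrammed replicate 1.

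Of 27 smooth muscle and myofibroblast genes, 18 fell and 4 rose (median -1.94), the lowest median among the lists plotted by share of calls. Actg2, the enteric smooth muscle actin, went from 894 and 547 CPM to 17 and 18.1 (log2 -5.36 ± 0.46, adjusted p = 6.00e-05), and Myh11, the smooth muscle myosin, from 61 and 66.8 to 4.27 and 5.47 (log2 -3.71 ± 0.3, adjusted p = 3.50e-05). The 4 that rose, Des, Synpo2, Tpm2 and Nexn, are shared with skeletal muscle. Of 32 targets of YAP and of MRTF-SRF, which respond to cell tension, 18 fell and 3 rose (median -1.14), with 12 to 20 lower as single libraries were left out. Thrombospondin-1 (Thbs1), a matrix protein, went from 16723 and 14218 CPM to 1385 and 2186 (log2 -3.12 ± 0.32, adjusted p = 0.000182), with both reprogrammed libraries far below both MEF libraries. Ankrd1, a YAP target that is also a sarcomere gene, rose from 53.6 and 73.2 to 385 and 290.3 CPM (adjusted p = 0.000339).

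Matrix genes moved in both directions. For collagens the shares higher and lower were 35.3% and 11.8%, beside 15.9% and 11.3% of all tested genes. Of 34 collagen genes, 12 rose and 4 fell (median 0.3), and 1 fell without MEF replicate 1 or without reprogrammed replicate 1, against 7 with the GC correction and 8 with no filter on low counts. Type I collagen was not called: Col1a1 stood at 18119.8 and 8973 CPM in MEF and 5201 and 9019 in reprogrammed cells (adjusted p = 0.169), with overlapping libraries. Col1a2 stood at 5427 and 4839 CPM in MEF and 3107 and 3636 in reprogrammed cells (adjusted p = 0.137). Col23a1, a membrane-bound collagen, rose from 0.716 and 0.486 CPM to 30.6 and 40.3. Col26a1, a minor collagen, rose from 0.496 and 0 CPM to 58.9 and 107. Of 41 matrix proteases and inhibitors, 18 fell and 5 rose (8 rose with the GC correction or with no filter on low counts). The urokinase receptor Plaur went from 184 and 138 to 16.8 and 25.4 CPM (adjusted p = 0.000218), and Adamts20, a matrix protease, rose from 0.386 and 0.194 to 27.7 and 35.7 (adjusted p = 2.33e-05). Of 33 integrin and laminin genes, 9 rose and 6 fell (10 fell with the GC correction). Among the fibronectin-binding integrins, Itga4 rose from 6.72 and 7.82 CPM to 424 and 287 (log2 5.61 ± 0.37, adjusted p = 1.18e-05), above the 44.3 and 29.6 of muscle (log2 3.27 ± 0.32 against muscle, adjusted p = 0.000508). Itga5 fell from 1321 and 886 to 185 and 331 (log2 -2.1 ± 0.34, adjusted p = 0.00223). Itgb6, an epithelial integrin subunit, rose from 0.275 and 0.243 to 102 and 97.2 CPM, near the 142 and 149 of muscle. Col1a2 was chosen after its values were seen.

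Growth factor genes split by member. Of 42 IGF, FGF and PDGF genes, 12 rose (28.6%) and 16 fell (38.1%), beside 15.9% and 11.3% of all tested genes (median -0.62). Fgfr4, a receptor of muscle progenitors, rose from 0.22 and 0.146 CPM to 8.38 and 14.6 (log2 5.94 ± 0.51, adjusted p = 5.71e-05), while Fgfr1 fell from 609 and 403 to 144 and 227 (adjusted p = 0.00876) and Fgfr2 from 41.5 and 39.1 to 4.78 and 4.5 (adjusted p = 0.000105). The ligand Fgf7, secreted by mesenchyme, fell from 63.7 and 82.6 to 7.08 and 6.39 CPM (adjusted p = 5.25e-05). Igfbp5, an IGF-binding protein of differentiating myoblasts, rose from 359 and 313 to 3196 and 4329 CPM (log2 3.48 ± 0.27, adjusted p = 2.81e-05), above the 1224 and 1275 of muscle (log2 1.59 ± 0.25 against muscle, adjusted p = 0.00462). In the TGF-beta, BMP and activin list, 14 of 41 fell (34.1%) and 6 rose (14.6%, near the share of all tested genes). Grem1, a secreted BMP antagonist, went from 344 and 392 to 13.9 and 10.2 CPM (log2 -4.93 ± 0.31, adjusted p = 9.83e-06). Smad6, an inhibitory SMAD, fell from 81.8 and 39.4 CPM to 3.09 and 3.73 and Smad7, its relative, from 99.4 and 60.2 to 15 and 18.4. Mstn, which encodes the muscle growth inhibitor myostatin, rose from 0.0551 and 0.0971 to 4.78 and 3.44 CPM (adjusted p = 0.000131). Of 23 Notch genes, 6 rose and 6 fell, but 0 fell without reprogrammed replicate 1, 1 without MEF replicate 1 and 2 without either muscle library. The ligand Jag2 rose from 0.165 and 0.0971 to 16.5 and 28.2 CPM (adjusted p = 1.91e-05). Of 38 Wnt genes, 6 rose (15.8%, near the share of all tested genes) and 12 fell (31.6%). Fewer Wnt genes fell without MEF replicate 1 or without reprogrammed replicate 1. The antagonist Wif1 rose to 12.6 and 17.5 CPM from 0.0551 and 0.291, and Sfrp1, also an antagonist, fell from 223 and 243 to 42.7 and 29.1 (adjusted p = 0.000101 and 0.000199). Fgfr1, Fgfr2, Smad6 and Smad7 were chosen after their values were seen.

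**Figure D5:**
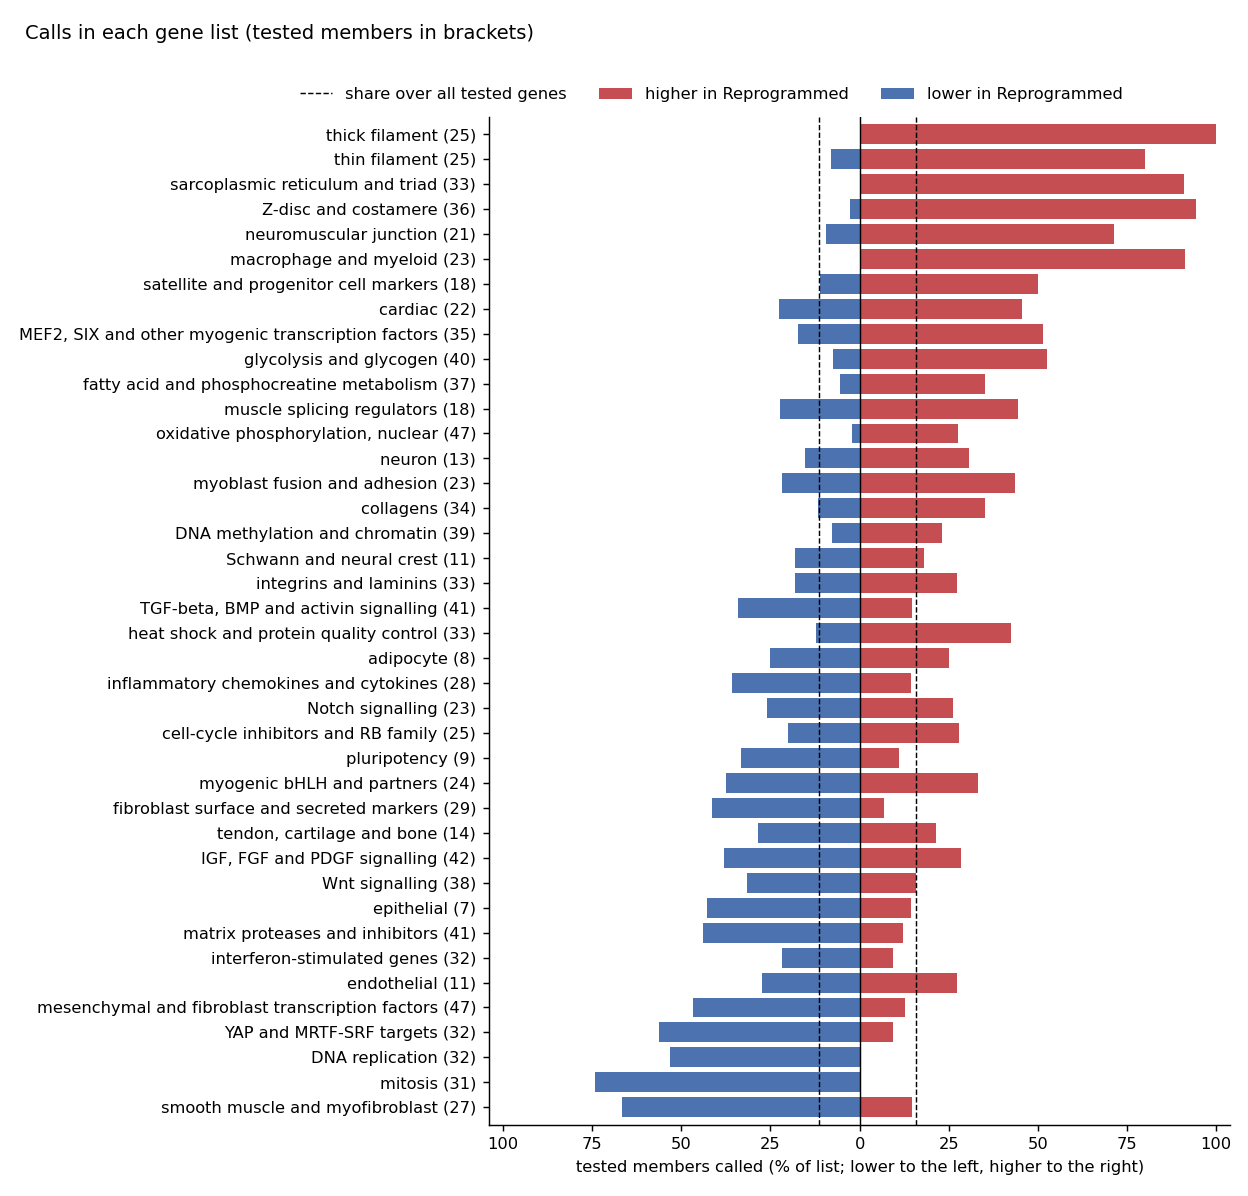
Share of the tested members of each gene list called higher (red, right) or lower (blue, left) in reprogrammed cells, ordered by median log2 fold change; dashed lines mark 15.9% and 11.3%, the shares over all tested genes. Thick filament, Z-disc, triad and macrophage genes reach 90% or more on the right, and mitosis and smooth muscle genes reach 74.2% and 66.7% on the left.

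Of 22 tested cardiac genes, 10 rose and 5 fell (median 1.35), 3 of them without MEF replicate 1. Those that rose encode contractile, calcium-handling or membrane proteins, several also used by developing skeletal muscle. Tnnt2 reached 2282 and 1766 CPM from 3.69 and 5.88, the atrial light chain Myl4 3253 and 2929 from 7.82 and 6.12, and the connexin Gja5 215 and 274 from 0.275 and 0.437 (log2 8.72, 8.79 and 9.38, adjusted p = 1.90e-06, 1.41e-06 and 1.66e-06). Among cardiac regulators, Tbx5 fell from 11.7 and 7.38 to 1.97 and 1.6 CPM (adjusted p = 0.00585), Gata4 stood at 8.59 and 6.31 against 3.49 and 4.41 (adjusted p = 0.107), and Nkx2-5 was under 0.3 CPM in all 4 libraries. Of 13 neuronal genes tested, 4 rose and 2 fell, with 2 higher without MEF replicate 1 and 1 lower without MEF replicate 2 or reprogrammed replicate 2. Dcx, which encodes the microtubule protein doublecortin, went from 0.33 and 0.194 to 187 and 147 CPM (log2 9.3 ± 0.52, adjusted p = 5.44e-06), above the 62.2 and 34.2 of muscle (log2 1.79 ± 0.34 against muscle, adjusted p = 0.011). Tubb3, a pan-neuronal tubulin, was not called (34.3 and 21.1 against 21 and 41.9 CPM). In the tendon, cartilage and bone list, 3 of 14 rose and 4 fell. Scx, the tendon factor scleraxis, rose from 14.1 and 6.8 to 69.8 and 109 CPM, below the 159 and 163 of muscle, while its target Tnmd fell from 45.2 and 72.1 to 5.62 and 3.05 (adjusted p = 0.000623 and 0.00032). Endothelial (3 of 11 higher, 3 lower), Schwann and neural crest (2 and 2 of 11), adipocyte (2 and 2 of 8) and epithelial lists (1 and 3 of 7) held calls in both directions. Without single libraries these counts moved: 1 endothelial gene rose without reprogrammed replicate 2, 1 Schwann gene fell without MEF replicate 1 or either reprogrammed library, and 2 epithelial genes rose and 0 fell without reprogrammed replicate 1, with 1 lower without MEF replicate 1. From the erythroid and lymphoid list Cd3g was the 1 gene tested, and the other 13 held too few counts. Cd3g went from 0 counts in MEF to 9.95 and 8.96 CPM, at least 60.8-fold higher (adjusted p = 0.000547), and muscle held 2.99 and 0.852. With 0 counts in MEF it could not have been called lower, so its call says nothing about the list. Gata4, Nkx2-5 and Tubb3 were chosen after their values were seen.

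Of 39 tested genes of DNA methylation and chromatin, which bear on the subject of the study, 9 rose (23.1%) and 3 fell (7.7%). The median was 0.26, and over all tested genes 15.9% rose and 11.3% fell. Fewer members rose whenever a single library was left out, and 5 fell with the GC correction. All 3 Tet genes, whose enzymes oxidise 5-methylcytosine, rose. Tet1 went from 1.38 and 2.09 CPM to 18.9 and 14.8 (log2 3.27 ± 0.38, adjusted p = 0.000331), Tet2 from 20.5 and 24.6 to 68.7 and 78.5 (adjusted p = 0.00231) and Tet3 from 32.9 and 19.3 to 46.7 and 69.5 (adjusted p = 0.0322), the last a call lost without MEF replicate 2, reprogrammed replicate 2 or either muscle library. The maintenance methyltransferase Dnmt1 stood at 93.9 and 69.4 CPM in MEF and 41.7 and 55 in reprogrammed cells and was not called (adjusted p = 0.073), whereas its cofactor Uhrf1 fell from 24.8 and 19 to 6.24 and 5.71 (adjusted p = 0.0049). The de novo enzyme Dnmt3a rose from 15.5 and 14.4 to 30.2 and 32.3 CPM (adjusted p = 0.0178), a call lost without either MEF library or reprogrammed replicate 2. Gadd45a, a stress gene also linked to demethylation, rose from 16.9 and 19.9 to 201 and 139 CPM (log2 3.21 ± 0.29, adjusted p = 7.56e-05). In the pluripotency list 1 of 9 tested genes rose and 3 fell (Klf2, Klf4 and Tbx3), 1 of them without MEF replicate 1 or without reprogrammed replicate 1. Klf2, a Krueppel-like factor, fell from 65.5 and 53.5 to 26.9 and 16.6 CPM (adjusted p = 0.0106). Klf4, its relative, fell from 258 and 117 to 36.3 and 84.7 CPM (adjusted p = 0.0319), a call lost without MEF replicate 1 or reprogrammed replicate 1, and that of Tbx3 was lost without these or either muscle library. Among the untested members, Nanog and Pou5f1 had 0 counts in both reprogrammed libraries, which allows 0.157 CPM. The member that rose was Esrrb, a nuclear receptor of embryonic stem cells and of other tissues, which went from 0 counts in MEF to 8.83 and 16.7 CPM, at least 82.1-fold higher (adjusted p = 9.93e-05), and muscle held 16 and 20.3. Tet3 and Dnmt3a were chosen after their values were seen.

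The steepest rises were shared by sarcomere genes and less familiar ones. A total of 283 genes went from under 1 CPM in MEF to 10 CPM or more in reprogrammed cells, 22 of them from 0 counts in both MEF libraries. Ky, which encodes a muscle protein needed for sarcomere upkeep, reached 44.4 and 61.7 CPM from 0 counts, at least 341-fold higher (adjusted p = 9.72e-06). Atp1b4, a sodium pump family member of muscle nuclear membranes, went from 1 count in MEF to 199 and 179 CPM (adjusted p = 1.07e-05), while muscle held 4.14 and 1.4 (log2 6.06 ± 0.52 against muscle, adjusted p = 0.00028). Gpr37, an orphan receptor, reached 38.1 and 35.8 CPM and the potassium channel Kcnc4 26.1 and 43.6, each from 0 counts (at least 238-fold and 224-fold). Trp63, an epithelial p53-family factor, rose from 0.11 and 0.0971 to 89.3 and 103 CPM (log2 9.77 ± 0.43, adjusted p = 1.57e-06).

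In the opposite direction, 9 genes went from 10 CPM or more in MEF to under 1 CPM, Ppbp, Dlx2 and Fhdc1 among them. Cck, which encodes cholecystokinin, fell furthest of the genes named by rule, from 183 and 169 CPM to 0.956 and 1.21 (log2 -7.33 ± 0.4, adjusted p = 4.86e-06). Ppbp, a chemokine gene, fell from 34.3 and 40.0 to 0.394 and 0.242 CPM (log2 -6.86 ± 0.46, adjusted p = 1.34e-05), and Dlx2, a homeobox gene, from 36.5 and 14.2 to 0.281 and 0.726 (adjusted p = 0.000298). Aoc3, Lipg and Fhdc1 fell with log2 fold changes from -4.39 to -5.22. Genes named for the largest changes were picked among those whose libraries do not overlap, so their lack of overlap is no added support.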

How the data were processed

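Poly(A) RNA of 6 mouse libraries was sequenced on a NextSeq 500 after a strand-keeping SENSE mRNA-Seq preparation, per the labels' protocols. Tools named in the submitters' processing notes are DESeq2 1.26.0, featureCounts 1.6.2, HISAT2 2.1.0 and Trim Galore 0.6.0, with the build mm10. How strand was treated in counting, and with which annotation, is not stated there, so antisense and overlapping genes are uncertain. For each library the authors deposited raw counts by gene symbol.

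From these counts, genes were filtered with filterByExpr, scaled by TMM and fitted with edgeR 4.0.16 in R 4.3.3 (robust quasi-likelihood test, all 6 libraries, reprogrammed minus MEF). Adjusted p-values are Benjamini-Hochberg values over 17400 genes. A fold against 0 counts uses 3 counts per library (the mean over the group's libraries), and ratios from 1 to 3 counts have exact 95% Poisson intervals, both covering counting error only. Coordinates come from GENCODE M21, promoters from RefSeq. The procedure was tested on simulated data with far fewer changed genes than were called here. Those data held no GC-linked difference between replicates, so the test does not cover the replicate differences seen in these libraries.

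The members and gene lists were chosen with earlier results of these data known. Named genes are the 3 markers, the 12 largest changes each way among called genes at 20 CPM or more whose libraries do not overlap, 4 members per list by adjusted p, up to 2 called against the majority, the paired genes and a fixed panel. Alternatives were DESeq2 size factors, no filter, DESeq2's Wald test, the 4 libraries alone, a replicate block and each library left out, and, added after the data were seen, a crossed replicate block and a GC correction. Values of some genes are not reported here.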

Additional observations from a re-analysis of the deposited data

How the results depend on the processing

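Genes called higher and lower numbered 2769 and 1973. They numbered 2696 and 2042 with DESeq2 size factors, 3247 and 2327 with no filter, 2799 and 2207 by DESeq2's Wald test, and 2336 and 1589 with the 4 libraries alone. Leaving out single libraries gave 2258 to 2394 higher and 1280 to 1926 lower genes. The GC correction gave 4042 and 2993. Same-numbered libraries deviated together in MEF and muscle (correlation of deviations 0.31) but not in MEF and reprogrammed cells (-0.53) or muscle and reprogrammed cells (-0.29), so the numbers were not read as a pairing. A replicate block gave 2187 higher and 1377 lower genes, and a crossed replicate block, chosen after seeing the data, 4521 and 3828. With the replicate block 7 oxidative phosphorylation genes rose and 11 replication genes fell. Of 252 called genes named by the rule, 223 kept their call without each library in turn and 29 lost it without at least 1. Their calls were lost for 15 with the replicate block, 9 with the 4 libraries alone and 1 each with DESeq2 size factors, no filter, DESeq2 and the GC correction, and 0 changed direction. The cause was not tested. With 2 libraries a group and 3 residual degrees of freedom, small changes and genes near 3 counts could not be resolved.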

Other observations

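Long noncoding RNAs also moved. Of 375 tested lincRNAs, 122 were higher (32.5%) and 21 lower, beside 17.3% and 13.4% of protein-coding genes. Among 388 antisense genes 81 were higher (20.9%), with the limit that the use of strand in counting is not stated. H19, Meg3 and Rian, imprinted noncoding RNAs chosen after their values were seen, rose, while Cdkn1c, an imprinted protein-coding gene, was not called (17.5 and 15.2 CPM in MEF, 7.98 and 9.88 in reprogrammed cells, adjusted p = 0.0501). H19 went from 973 and 717 CPM in MEF to 6127 and 7214 (log2 fold change 2.98 ± 0.27, adjusted p = 7.56e-05), against 4745 and 4254 in muscle. Meg3 rose from 1377 and 748 to 2909.7 and 4844 CPM (adjusted p = 0.0146) and Rian, transcribed from the same imprinted domain, from 456 and 709 to 3318 and 2521 (log2 2.33 ± 0.29, adjusted p = 0.000583). Muscle held Rian at 84.9 and 82.8 CPM, so that the reprogrammed libraries lay above both other groups (log2 5.12 ± 0.33 against muscle, adjusted p = 0.000125).

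Inflammatory and stress genes were mixed. Of 28 tested chemokine and cytokine genes, 10 fell and 4 rose, 2 of them without reprogrammed replicate 1. Csf1, the macrophage growth factor, fell from 1961 and 1353 CPM to 77.5 and 126 (log2 -4.03 ± 0.36, adjusted p = 7.91e-05) and the chemokine Ccl2 from 264 and 204 to 23 and 27.9 (adjusted p = 8.88e-05). Of 33 heat shock and protein quality control genes, 14 rose and 4 fell, 2 of them without reprogrammed replicate 2. Of 32 interferon-stimulated genes, 3 rose (9.4%) and 7 fell (21.9%), beside 15.9% and 11.3% of all tested genes. In that list 0 rose without MEF replicate 2, 1 rose without reprogrammed replicate 1, and 4 fell without reprogrammed replicate 2 (15 fell with the GC correction).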
